A study of Rattus norvegicus with 67 samples.

Results

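Sperm of 3 F3 generation rats of the atrazine lineage with both kidney disease and a lean phenotype (animals M57, M58 and M63) was compared with sperm of 17 males of the same lineage without disease, out of 67 animals listed in the series. The 20 animals are outbred Hsd:Sprague Dawley SD males, whose F0 ancestors were treated with atrazine, a herbicide, at 25 mg/kg by injection into the abdomen during gestation, and their pathology was scored at 1 year of age. None of the 20 animals was itself treated. Kidney disease was called from small glomeruli, a thickened Bowman's capsule and cysts, and the lean phenotype from adipocyte size, body mass index and abdominal fat below those of control animals. The sample list contradicts itself for M57, M58 and M63, since their titles and lineage tag give atrazine but their treatment tag gives DMSO, the vehicle of the control lineage. All 17 control lineage samples carry the atrazine treatment tag, so the tag contradicts the lineage in both directions. The title and the lineage were followed. Among the 17 animals without disease, 4 have the same DMSO tag (M62, M65, M67 and M69) and 13 have the atrazine tag. The tag therefore goes with the disease group, and a further comparison was made within it, of the 3 animals with the 4. What the tag stands for is not given in the sources used here, and disease and tag cannot be told apart in the comparison with all 17.

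In maturing sperm most histones are replaced by protamines, small basic proteins that pack the DNA more densely, and only a small part of the genome keeps its nucleosomes. Sites that keep histones can carry histone marks into the embryo, and a site with more or less retained histone in one group than in another is called a differential histone retention site (DHR). Chromatin immunoprecipitation with a histone H3 antibody followed by sequencing (ChIP-Seq) counts the DNA fragments recovered with the antibody. The deposited counts are numbers of reads in windows of 1000 bp of the Rnor_6.0 rat genome. A count also follows the number of copies of a window in the DNA of the animal and holds background reads. With no input library analysed here, copy number, background and histone retention cannot be told apart. Counts of genomic DNA hold no cell type markers, so the sperm label could not be checked in them. Levels are given below as reads per 1000000 reads of the library (RPM), with library sizes scaled by edgeR's TMM factors.

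Of the kidney and lean libraries, those of M57 and M63 were shallow. M63 held 26915977 reads, M57 held 30248236 and M58 held 62488684, against 22211333 to 80885350 (median 57704749) in the 17 animals without disease. Windows with a mean of 10 or more reads over the 20 animals were tested, 2410804 of 2782040. A window tested held a median of 45 reads in the 3 kidney and lean libraries together, so that single windows of single animals rest on few reads.

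Few windows differed between the kidney and lean animals and the 17 animals without disease. With edgeR's quasi-likelihood test, p was below 0.0001 in 53 windows that were higher (0.0022% of those tested) and in 168 that were lower (0.00697%), 221 together, while uniform p-values would place 241.1 windows there. No window had an adjusted p below 0.05, and the smallest adjusted p by edgeR was 0.315. At an unadjusted p below 0.05 there were 120327 windows, 4.99% of those tested, with 2.19% higher and 2.8% lower. DESeq2's Wald test also gave 0 windows by its adjusted p, with 186 windows below 0.0001, and edgeR's exact test gave 11 windows by its adjusted p, with 701 below 0.0001. The windows described below are those of smallest p, and by the main test none of them holds after adjustment. By edgeR's exact test 6 of the 11 windows with an adjusted p below 0.05 are among them, 1 higher (chr8:105747001-105748000) and 5 lower (chr6:56624001-56625000, chr8:80445001-80446000, chr8:122545001-122546000, chr10:96564001-96565000 and chr2:164236001-164237000).

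Joined over neighbouring windows with p below 0.1, the windows formed 219 DHRs, of which 53 were higher and 166 lower in the kidney and lean animals. The DHRs were short. Of the 219, 132 were a single window of 1 kb, the longest higher one spanned 17 kb and the longest lower one 9 kb. The log2 fold change of the lead window, the window of smallest p in a DHR, had a median of 1.12 in the higher DHRs (range 0.80 to 1.48) and of -1.68 in the lower ones (range -6.76 to -1.03). The value of -6.76 is that of a window without reads in the 3 kidney and lean libraries, described below. It is set by the fit and is not a measured ratio. Higher lead windows held a median of 88 reads over the 3 kidney and lean libraries and lower ones a median of 15, against 45 in all windows tested. In 40 of the 53 higher lead windows each of the 3 kidney and lean animals was above all 17 animals without disease, and in 127 of the 166 lower ones each was below all 17. Over all windows tested the 3 animals were above all 17 in 0.144% and below all 17 in 0.149%. The lead windows were chosen by this same contrast, so these counts describe them and test nothing.

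**Figure D1:**
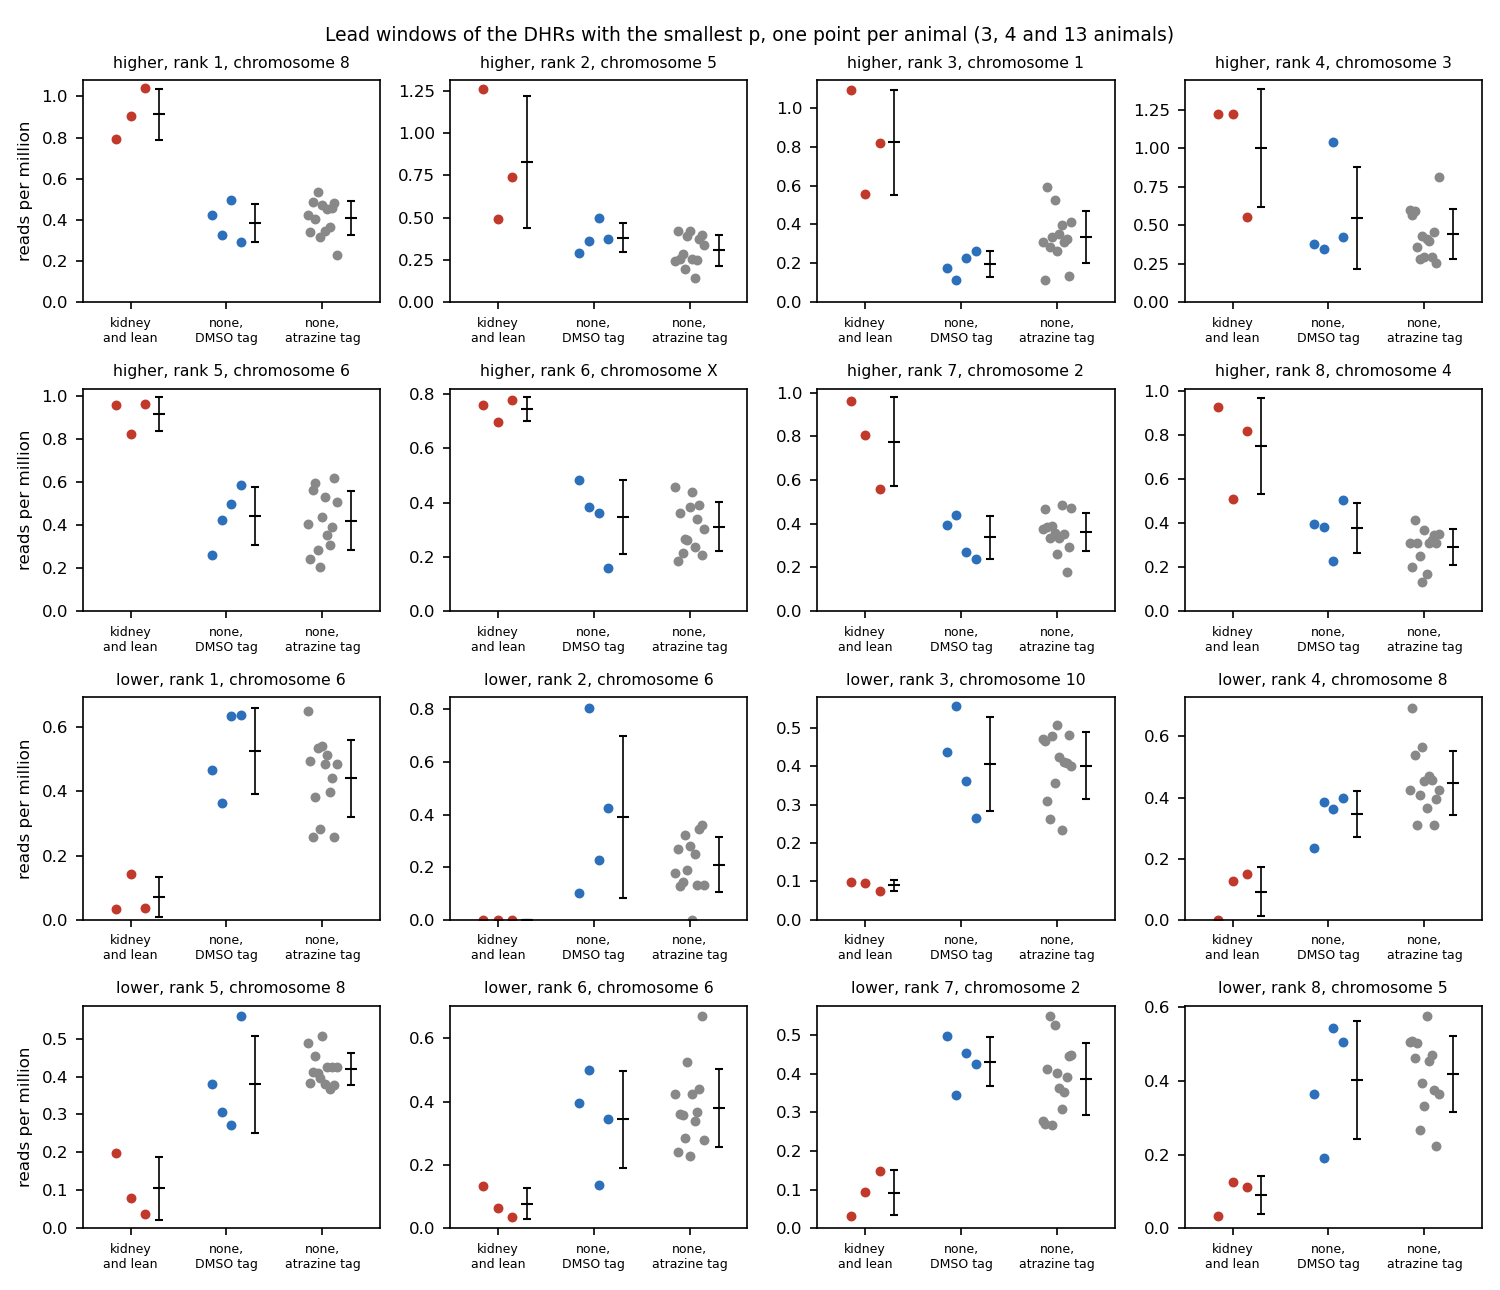
RPM (y axis, linear, from 0) in the lead windows of the 8 higher and the 8 lower DHRs of smallest p, with 1 point per animal for the 3 kidney and lean animals, the 4 DMSO-tagged and the 13 atrazine-tagged animals without disease, and bars for the mean ± SD of each group. In the lower windows the kidney and lean animals hold at most 0.199 RPM, and in 5 of the 8 higher windows all 3 lie above every animal without disease.

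Among the higher DHRs, the smallest p was found at chr8:105746001-105749000, in a region without a gene in the study's annotation. Its lead window chr8:105747001-105748000 held 0.795 RPM in M57, 0.904 in M58 and 1.04 in M63. The 4 DMSO-tagged animals without disease held 0.424, 0.326, 0.499 and 0.293 RPM (M62, M65, M67 and M69), and the 17 together ranged from 0.231 to 0.534 with a median of 0.424. All 3 kidney and lean animals were above all 17, from which they are separated by a gap. The mean was 0.913 ± 0.123 RPM (SD, n = 3) against 0.404 ± 0.0845 (SD, n = 17). The log2 fold change was 1.18 (standard error 0.23, p = 1.79e-06, edgeR adjusted p = 0.653). Within the DMSO tag it was 1.26 (standard error 0.31, p = 7.81e-05, edgeR adjusted p = 0.987), and between the tags without disease -0.10 (p = 0.688).

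The same separation was seen at 4 of the other 7 higher lead windows. At chr6:16753001-16754000 the 3 animals held 0.96, 0.824 and 0.965 RPM, and the 17 held 0.207 to 0.619. At chrX:6341001-6342000 they held 0.761, 0.697 and 0.78 RPM, and the 17 held 0.16 to 0.482. At chr2:232750001-232751000 they held 0.96, 0.808 and 0.557 RPM against 0.18 to 0.485, and at chr4:52653001-52654000 0.927, 0.507 and 0.817 RPM against 0.132 to 0.506. In these windows M57, M58 and M63 were all raised, with log2 fold changes between 1.11 and 1.22. At chr4:52653001-52654000, M58 was above the highest animal without disease, M69, by less than 1 read. Within the DMSO tag the 4 log2 fold changes lay between 0.89 and 1.15, with p from 0.000616 to 0.0108, none of them below 0.0001.

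In the remaining 3 higher windows 1 or more of the 3 animals fell inside the range of the animals without disease. At chr5:79386001-79387000 M57 held 1.26 RPM, M58 0.491 and M63 0.742, and the highest of the 17 held 0.499. There the log2 fold change of 1.32 (standard error 0.27) rested on M57 more than on M58. At chr3:153043001-153044000 M57 and M58 both held 1.22 RPM and M63 held 0.557, with a range of 0.258 to 1.04 in the 17. Within the tag the log2 fold changes of these windows on chromosomes 5 and 3 were 1.13 and 1.06. Their p by the quasi-likelihood test was 0.00154 and 0.00141, neither below 0.0001. At chr1:77257001-77258000 the values were 1.09, 0.555 and 0.817 RPM, and the 17 held 0.113 to 0.592. In this last window the 4 DMSO-tagged animals held 0.175, 0.115, 0.227 and 0.266 RPM and were lower than the atrazine-tagged ones (log2 difference -0.82, p = 0.0158), so that the log2 fold change of 1.40 against all 17 became 2.08 within the tag (standard error 0.39, p = 6.64e-07, edgeR adjusted p = 0.4).

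Lower lead windows had larger log2 fold changes than higher ones. The windows were chosen by p, and the cause of this difference in size was not tested. The smallest p of the whole comparison was that of chr6:56624001-56625000, in a DHR from 56622001 to 56625000. M57 held 0.0331 RPM (1 read), M58 0.143 (9 reads) and M63 0.0371 (1 read). The DMSO-tagged animals without disease held 0.468, 0.365, 0.636 and 0.639 RPM, and all 17 held 0.257 to 0.652 with a median of 0.485. All 3 kidney and lean animals were below the lowest of the 17. The log2 fold change was -2.35 (standard error 0.41, p = 1.31e-07, edgeR adjusted p = 0.315), -2.50 within the tag (standard error 0.46, p = 4.31e-07, edgeR adjusted p = 0.346) and 0.19 between the tags (p = 0.446).

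Another 6 of the 8 lower lead windows separated the groups in the same way, each with 9 to 12 reads over the 3 kidney and lean libraries. At chr10:96564001-96565000 the 3 animals held 0.0993, 0.0951 and 0.0742 RPM, which is the smallest spread among these 6 windows, and the 17 held 0.235 to 0.557. At chr8:122545001-122546000 M57 had 0 reads, M58 held 0.127 RPM and M63 0.148, against 0.234 to 0.694. At chr8:80445001-80446000 they held 0.199, 0.0793 and 0.0371 RPM against 0.272 to 0.559. All of these are windows of 1 kb in which the animals without disease held levels near the median of all windows tested, 0.381 RPM. At chr6:69887001-69888000 the 3 animals held 0.132, 0.0634 and 0.0371 RPM and the lowest of the 17 was M67 with 0.136. At chr2:164236001-164237000 they held 0.0331, 0.0951 and 0.148 RPM against 0.267 to 0.55, and at chr5:139107001-139108000 0.0331, 0.127 and 0.111 RPM against 0.192 to 0.577. The log2 fold changes of these 6 windows lay between -2.28 and -2.0, with standard errors of 0.40 to 0.46 and edgeR adjusted p of 0.653. Within the tag, p by the quasi-likelihood test was no longer below 0.0001 at chr8:122545001-122546000 (p = 0.000458) and chr5:139107001-139108000 (p = 0.000114). In the others it stayed below 0.0001.

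The remaining lower window, chr6:51056001-51057000, was the only one of all windows tested without a read in any of the 3 kidney and lean libraries. In this comparison its reads came from the animals without disease alone, and it passed the filter on mean reads through them. Windows below that filter were not tested, so it is the only one among tested windows and not in the genome. The bounds and p-values given for it below are those of a window admitted in this way. The animals without disease held 0 to 0.806 RPM with a median of 0.227, and the 4 DMSO-tagged ones held 0.102, 0.806, 0.227 and 0.426. A count of 0 allows up to 3 reads over the 3 libraries taken as 1 pool, which is 0.025 RPM. With only counting error considered, the pooled level was thus at least 10.1-fold below the mean of the 17. It was at least 15.6-fold below the mean of the 4. These bounds are for the pool and not for each animal, and in the windows on either side M63 held 0.148 and 0.111 RPM. Of the 17, 1 atrazine-tagged animal also had 0 reads, so the groups touch. The test gave p = 5.91e-07 (edgeR adjusted p = 0.653) against the 17 and p = 2.29e-08 (edgeR adjusted p = 0.0551) against the 4. The DMSO-tagged animals were also higher there than the atrazine-tagged ones (p = 0.0122).

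This window lies in the longest lower DHR, chr6:51048001-51057000, and the low reads went on to 51060000. The 12 kb from 51048001 to 51060000, whose bounds were set after the values were seen, held 2 reads in M57 and 0 in M58. M63 held 63 reads there, 2.34 RPM, within the 0.319 to 5.78 RPM of the 17 (median 2.24). The stretch thus held fewer than 10 reads in M57 and in M58 but not in M63, and 9 of the 17 were below M63. The same was seen in animals outside the comparison. Of the 63 other animals with counts, 12 held fewer than 10 reads over these 12 kb, and none of these was among the 17. The 12 included the lean animals M42, M54 and M56 with 0.0662, 0.0419 and 0.0731 RPM. Lean animals M28 and M66 held 1.99 and 4.83 RPM, and the 3 animals with kidney disease only held 1.81 to 2.38. Control lineage animals without disease ranged from 0.0616 to 2.75 RPM.

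**Figure D2:**
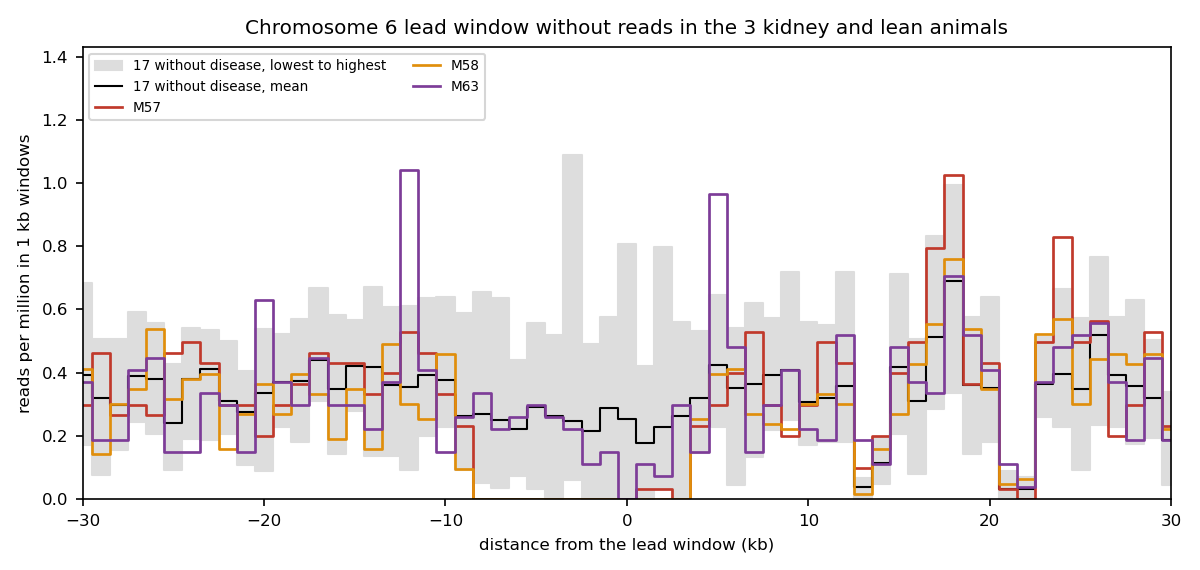
RPM in 1 kb windows (y axis) by distance in kb from the lower lead window on chromosome 6 (x axis), with a line for each kidney and lean animal, a black line for the mean of the 17 animals without disease and a grey band from their lowest to their highest value. M57 and M58 fall to 0 or nearly 0 over the 12 kb around the window, whereas M63 stays near the mean of the 17 on the left side of it.

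A stretch on chromosome 3 showed the opposite. The DHR chr3:153040001-153047000 and a neighbouring one, chr3:153059001-153067000, lie 64 and 44 kb from a region that the study annotates with Dsn1, which encodes a kinetochore protein needed for the attachment of chromosomes to the spindle. Over the 22 kb from 153027001 to 153049000, again bounds set after the values were seen, M57 held 17.6 RPM and M58 17.4 RPM, which is 2.25 and 2.23 times the median of the 17 animals without disease. M63 held 8.32 RPM, 1.06 times that median. The 17 ranged from 6.46 to 17.4 RPM with a median of 7.81, so 1 of them reached nearly the level of M58. Outside the comparison, the DMSO-tagged animals without disease M68 and M59 held 15.7 and 8.32 RPM. Lean animals M56 and M66 held 18.8 and 17.1 RPM, while lean animals M28, M42 and M54 held 11.5, 9.16 and 8.54 RPM. The 3 animals with kidney disease only held 7.38 to 7.93. Both stretches therefore set M57 and M58 apart from M63, with values that other animals of the series share.

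**Figure D3:**
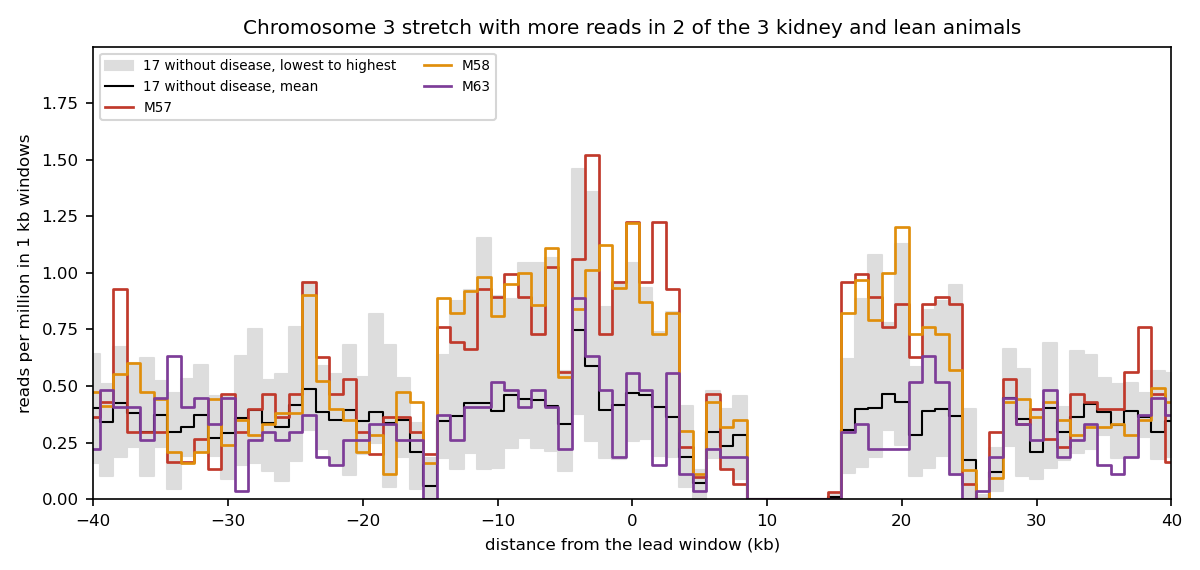
RPM in 1 kb windows (y axis) by distance in kb from the higher lead window on chromosome 3 (x axis), drawn as for the window on chromosome 6. M57 and M58 run above the mean of the 17 from 15 kb before to 3 kb after the window and again from 16 to 24 kb after it, while M63 follows the mean.

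The longest higher DHR was chr1:76579001-76596000, which overlaps a region annotated with Sult2a6, a gene of the cytosolic sulfotransferase 2A family that couples sulfate to hydroxysteroids and bile acids. Its lead window chr1:76592001-76593000 held 1.26, 1.03 and 1.86 RPM in M57, M58 and M63, 0.526, 0.729, 0.863 and 0.612 RPM in the DMSO-tagged animals and 0.198 to 1.20 RPM in all 17. M57 and M63 were above all 17, and M58 was not. The log2 fold change was 0.98 (standard error 0.23, p = 3.61e-05, edgeR adjusted p = 0.988) against the 17, and 1.02 within the tag. The p was 0.000677 by edgeR's exact test and 0.000379 by DESeq2, with a log2 fold change of 0.99 in both, so that it passed 0.0001 by the main test only among these 3. Over the 17 kb the 3 animals held 18.4, 13.1 and 19.5 RPM, the 17 held 4.11 to 18.5 (median 10.7), and the 3 kidney-only animals held 15.6, 17.6 and 18.3 RPM. Over the 17 kb the kidney-only values thus lay among those of the kidney and lean animals, but such a level was not limited to animals with kidney disease. Of the 63 other animals with counts, 23 held at least as much over the 17 kb as M58, the lowest of the 3. Beside the kidney-only animals they included 2 of the 17, lean animal M56 and M59, which was without disease and outside the comparison. M68, also without disease, and lean animals M28, M42, M54 and M66 lay below M58. At the lead window the kidney-only animals held 0.983, 1.00 and 0.883 RPM, below all 3 kidney and lean animals (log2 difference 0.48, standard error 0.31, p = 0.127). The single control lineage animal with kidney disease and lean phenotype, M17, held 4.75 RPM, below the 7.14 to 16.9 RPM of 9 control lineage animals without disease. In all, 5 of the 53 higher DHRs lay on chromosome 1 between 75 and 78 Mb, and none of the lower ones, in a stretch that holds 0.0935% of the windows tested.

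The study names genes only for its own regions, which it chose in part on these same animals. The names used here come from 2059 such regions, which hold 0.138% of the windows tested, and 6 of the 219 DHRs overlapped one. All 6 were higher in the kidney and lean animals, and they are not independent evidence of that direction. Beside Sult2a6, which had another DHR at chr1:76606001-76607000, they lay at Myh10 and Ndel1 (a nonmuscle myosin heavy chain and a partner of dynein), Vom1r57 (a vomeronasal pheromone receptor), Dolk (dolichol kinase, which acts in N-glycosylation) and Ube3c (a ubiquitin ligase). At the Dolk window chr3:8861001-8862000 the 3 animals held 0.463, 0.523 and 0.817 RPM, and the 17 held 0.143 to 0.425. At the Vom1r57 window chr1:66695001-66696000 they held 0.596, 0.761 and 0.631 RPM against 0.103 to 0.479. At the Myh10 and Ndel1 window chr10:55413001-55414000 they held 0.497, 0.539 and 1.15 RPM against 0.0908 to 0.409. All 3 animals were above all 17 in these windows, as they were at Ube3c (chr4:2549001-2550000), with 0.927, 0.555 and 0.742 RPM against 0.188 to 0.485. The log2 fold changes of these 4 windows were 1.29, 1.21, 1.23 and 1.12 in this order, with edgeR adjusted p of 0.988 each.

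For genes of the affected organs few windows could be looked up. Of a list of 35 kidney genes, 3 had a region named in the study (Col4a5, a collagen of the glomerular basement membrane, Lrp2, a receptor that takes up protein in the proximal tubule, and Pax2, a transcription factor of kidney development). Their 10 windows held 1 with an unadjusted p below 0.05, higher, and 0 lower, where 2.19% and 2.8% of all windows had such a p, too few windows to set against these shares. They had a median log2 fold change of -0.02 against -0.01 over all windows tested. It was the Pax2 window chr1:264505001-264506000, with 0.331, 0.428 and 0.631 RPM in M57, M58 and M63 and 0.161 to 0.489 RPM in the 17, so that M57 and M58 were inside that range (log2 fold change 0.68, standard error 0.31, p = 0.0341, edgeR adjusted p = 0.994). Another Pax2 window, chr1:264503001-264504000, had a log2 fold change of -0.65 (p = 0.0942). For fat and energy balance, 5 of 42 genes had a region (Adipoq, Cebpa, Ntrk2, Pparg and Zfp423), with 6 windows, 0 of them below 0.05 and a median of 0.04. Pparg, the transcription factor that drives adipocyte differentiation, held 0.331, 0.349 and 0.445 RPM in the 3 animals and 0.182 to 0.506 in the 17 at chr4:147288001-147289000. The level of the kidney and lean animals was inside the range of those without disease.

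Genes known for retained histones and genes of the germ line were read against the same 2.19% and 2.8%, and against the median of -0.01. Developmental regulators (Gsc, Hoxd1, Lhx4, Pax2, Tbx20 and Tbx3, 6 of 84) had 15 windows, of which the Pax2 window alone had p below 0.05, with a median of -0.01. Spermatogenesis genes (Catsper3, of the sperm calcium channel, and Sycp2, of the synaptonemal complex, 2 of 33) had 3 windows with 0 below 0.05 and a median of -0.41. Imprinted genes (Kcnq1, Mest and Ube3a, 3 of 23) had 5 windows with 0 below 0.05 and a median of 0.40. At the Ube3a window chr1:116595001-116596000 the 3 animals held 0.463, 0.539 and 0.817 RPM and the 17 held 0.179 to 0.636 (p = 0.0912). With 3 and 5 windows the medians of the last pair of lists describe those windows only. Most listed genes had no named region and were not analysed here.

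The comparison within the DMSO tag, of 3 with 4 animals that share the tag, gave 92 higher windows (0.00382%) and 114 lower ones (0.00473%) with p below 0.0001, which formed 89 higher and 108 lower DHRs. No window had an adjusted p below 0.05, with a smallest edgeR adjusted p of 0.0551 at the chromosome 6 window without reads, 121592 windows (5.04%) at an unadjusted p below 0.05, 0 adjusted calls by DESeq2 and 5 by edgeR's exact test. All 219 lead windows of the first comparison had the same direction here and 218 had p below 0.05, against 2.53% of all windows higher and 2.52% lower with such a p, but both comparisons use the same 3 kidney and lean animals and share the 4. At p below 0.0001 there remained 3 of the 53 higher and 48 of the 166 lower lead windows. Of the 89 higher DHRs, 68 had p below 0.05 in the same direction against all 17, and of the 108 lower DHRs 106. At the lead windows of the 89 higher DHRs the DMSO-tagged animals without disease were lower than the atrazine-tagged ones with p below 0.05 in 84, and at those of the 108 lower DHRs they were higher in 51. Over all windows tested the DMSO-tagged animals were lower with such a p in 4% and higher in 3.21%, but the 4 animals are on both sides of these counts, which share them by construction.

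The 2 higher windows of smallest p that only this comparison named show the pattern. At chr10:88145001-88146000, 30 kb from a region annotated with the keratin genes Krt14, Krt9 and Krt17, M57, M58 and M63 held 1.66, 1.47 and 2.19 RPM and the 4 DMSO-tagged animals 0.628, 0.806, 0.545 and 0.959. All 17 together reached 2.04 RPM, so the 3 animals were above the 4 but not above all 17. The log2 fold change was 1.23 within the tag (standard error 0.24, p = 1.96e-06, edgeR adjusted p = 0.788) and 0.49 against all 17, and the 4 were lower than the 13 by 0.89 on the log2 scale (p = 1.11e-05). At chr15:107558001-107559000 the 3 animals held 1.39, 1.11 and 0.891 RPM and the 4 held 0.292, 0.422, 0.499 and 0.666. There all 3 were also above all 17, which reached 0.88 RPM (log2 fold change 1.33 within the tag and 0.73 against all 17). The lower window of this kind, chr7:67894001-67895000, held 0.0993, 0.19 and 0 RPM in the 3 animals, 0.599, 0.672, 0.953 and 0.399 in the 4 and 0.228 to 0.953 in the 17 (log2 fold change -2.39 within the tag, standard error 0.43, p = 2.27e-07, edgeR adjusted p = 0.274).

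The tag was also compared among animals without disease. Between the 4 DMSO-tagged and the 13 atrazine-tagged animals without disease, 166 windows were higher (0.00689%) and 433 lower (0.018%) with p below 0.0001, and 29 (0.0012%) had an edgeR adjusted p below 0.05, 24 of them higher. The mitochondrial genome, which carries no histones, was among these differences (log2 difference 1.23 at MT:15001-16000, p = 1.15e-11). That window held 10.4, 9.24 and 8.87 RPM in the kidney and lean animals, 10.2, 12.6, 22.8 and 31.5 RPM in the 4 and 3.61 to 14.1 RPM in the 13. The 3 kidney and lean animals were within the range of the 13, while M67 and M69 were above it. At 15 of the 219 lead windows of the comparison with all 17, the tags differed with p below 0.05 (6.85%, against 7.21% of all windows tested), in the direction of the kidney and lean animals in 8 and against it in 7. At the other lead windows the tags did not differ by this test, which has 4 animals on one side and does not show that they are alike.

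Over broader stretches nothing passed against the 17 animals. Summed over 10 windows, 249030 bins of 10 kb were tested and none (0%) had p below 0.0001 against the 17 animals, with 3.59% below 0.05 and 0 by the edgeR adjusted p (smallest 0.9998). The bins of smallest p were chr6:124580001-124590000, higher by 0.39 on the log2 scale (5.26, 4.53 and 5.09 RPM against 3.17 to 4.22), and chr3:153040001-153050000 on the stretch described above, higher by 0.83 (8.34, 7.56 and 3.42 RPM against 2.67 to 7.27). The lower ones were chr13:106020001-106030000 with 2.85, 2.87 and 3.01 RPM against 3.09 to 4.72, and chr3:132850001-132860000 with 3.08, 2.92 and 3.12 RPM against 3.55 to 4.67. In 3 of these 4 bins all kidney and lean animals lay outside the range of the 17, and in the bin at 153040001 M63 lay inside it. The bins were chosen by this same contrast. The share of such bins among all bins tested was not worked out, so this describes the named bins only. In a separate fit of the 3 and the 4 DMSO-tagged animals alone, with 233573 bins tested, 62 bins (0.0265%) had p below 0.0001, 50 of them higher, and 7 had an edgeR adjusted p below 0.05, all 7 higher. This fit differs from that of the single windows within the tag in its animals and filter as well as in bin size, so their counts are not compared. These 7 were 3 bins of the chromosome 3 stretch and its flank (153030001 to 153070000), 2 on chromosome 15 (29360001-29370000 and 29470001-29480000), chr12:20790001-20800000 and the Sult2a6 bin chr1:76580001-76590000, and in each the 13 atrazine-tagged animals reached above the lowest of the 3 kidney and lean animals. So did M59 or M68, DMSO-tagged animals without disease that were not in the fit, in 5 of the 7. At chr1:76580001-76590000 the 3 held 10.2, 7.02 and 9.88 RPM, the 4 held 4.34, 5.41, 6.27 and 5.91, and the 13 held 2.22 to 10.7.

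The genome as a whole did not separate the groups. With all libraries thinned to 22000000 reads, the 5% of windows with most reads held 15.1% ± 0.252 of the reads of the kidney and lean animals (SD, n = 3) and 14.7% ± 0.406 of those without disease (SD, n = 17). Tested windows without reads made up 0.547%, 0.198% and 0.578% in M57, M58 and M63, inside the 0.172% to 0.823% of the 17. Among 25 such measures, including the share of reads on each chromosome, the smallest p was 0.174 by an exact two-sided permutation test over the 1140 splits of 3 and 17 animals (adjusted p = 0.958). Against the 4 DMSO-tagged animals the smallest p that 35 splits allow, 0.0571, was reached by the share of reads on chromosome 14 (4.30% to 4.36% against 4.37% to 4.50%) and on mitochondrial DNA (0.0139% to 0.0155% against 0.0171% to 0.0434%), with an adjusted p of 0.451 by the exact permutation test. With 4 animals on the other side this design cannot reach 0.05.

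**Figure D4:**
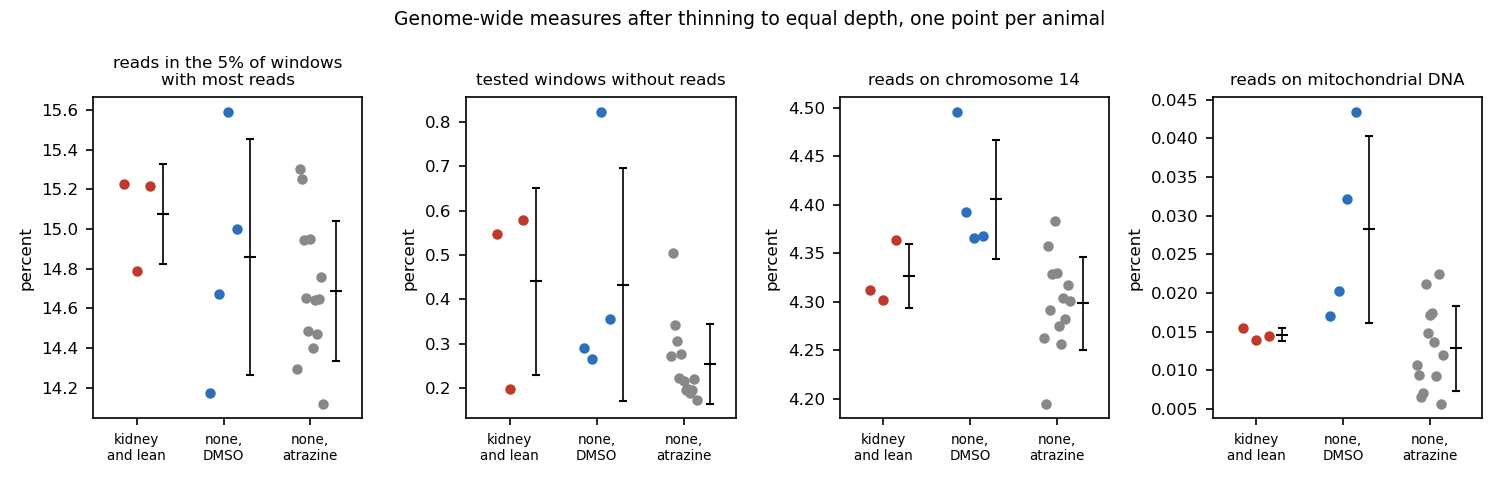
Percent of reads in the 5% of windows with most reads, of tested windows without reads, of reads on chromosome 14 and of reads on mitochondrial DNA (y axes, not starting at 0), after thinning to equal depth, with 1 point per animal and bars for the mean ± SD of the 3 kidney and lean, the 4 DMSO-tagged and the 13 atrazine-tagged animals. The groups overlap in the first pair of panels, and in the last pair the kidney and lean animals lie below the 4 DMSO-tagged but among the 13 atrazine-tagged animals.

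Each disease occurs without the other in animals of the same lineage, 3 with kidney disease only (M23, M60 and M64) and 5 lean only (M28, M42, M54, M56 and M66). Of these, 2 kidney-only animals (M60 and M64) and 1 lean-only animal (M66) have the DMSO tag of the kidney and lean animals, so that the tag differs in part between the groups, and its share in these contrasts was not tested. Compared directly by the quasi-likelihood test, p was below 0.0001 in 41 windows (0.00171%) against the kidney-only animals. Against the lean-only animals it was so in 964 (0.0402%), or 531 (0.022%) without lean animal M28, whose TMM factor of 0.912 was the lowest of the 5. Uniform p-values would place 241.1 windows there in the main comparison, so 41 is below that number and 964 and 531 are above it. No window had an edgeR adjusted p below 0.05 in these 3, with 73663 (3.07%), 240729 (10.0%) and 173119 windows (7.16%) at an unadjusted p below 0.05. In the same fits the lean-only animals against the 17 gave 1230 windows with p below 0.0001 (0.0513%), or 470 (0.0194%) without M28. The kidney-only animals against the 17 gave 16 (0.000667%), also below the number for uniform p-values. With M28 left out these were 31 of 2416862 windows, and 58 between the kidney-only and the kidney and lean animals. All groups share 1 spread in each fit, and its part in these counts was not tested. All lead windows that could be tested had the same direction against both groups as against the animals without disease (52 of 52 higher and 165 of 165 lower ones), but the values of M57, M58 and M63 that chose the windows are in each of these contrasts. At chr6:56624001-56625000 the kidney-only animals held 0.483, 0.384 and 0.247 RPM and the lean-only animals 0.251 to 0.914, all above the 3 kidney and lean animals. At chr8:105747001-105748000 the kidney-only animals held 0.371, 0.566 and 0.459 RPM, and the lean-only animals held 0.952 RPM in M28, above M57 and M58, and at most 0.744 RPM in the others, below all 3.

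In animals that were not used to choose the windows, the direction of the kidney and lean animals was found in at most 50% of the lead windows. Control lineage animal M17, which had kidney disease and the lean phenotype, differed from control lineage animals without disease in the direction of M57, M58 and M63 at 21 of the 53 higher lead windows (39.6%, against 49% of all windows) and at 51 of the 166 lower ones (30.7%, against 51%). Set against M59 and M68, which were free of disease and outside the comparison, the kidney-only animals had the same direction at 24 of 53 higher (45.3%, against 50.5% of all windows) and 83 of 166 lower lead windows (50%, against 49.5%). The lean-only animals had it at 23 of 53 (43.4%, against 51.4%) and 57 of 166 (34.3%, against 48.6%). Atrazine lineage animal M48 had kidney disease and the lean phenotype together with late puberty and testis disease, and its library held 20151792 reads, with a TMM factor of 0.615, the lowest of 66 animals, and a median log2 ratio to M59 and M68 of -0.46 over all windows. This library stands apart from the others. It had the same direction at 9 of 53 higher (17%, against 39% of all windows) and 77 of 166 lower lead windows (46.4%, against 61%). M17 and M48 are 1 animal each and M59 and M68 are 2, so these counts have no test.

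How many windows were called depended on 1 animal and on the test. The direction of most of them depended on the test and, within the tag, on 1 animal. Without M58, the deepest of the 3 libraries, 642 windows had p below 0.0001 in place of 221, and 2 had an edgeR adjusted p below 0.05, chr7:15823001-15824000 and chr8:36893001-36894000, where M57 and M63 had no reads and M58 held all 34 and 31 reads. Without M57 there were 167 and without M63 there were 214. The share of higher windows was 10.8% without M57, 15.4% without M58 and 18.2% without M63, against 24% with all 3 animals. It was 34.8% by edgeR's exact test, 53.8% by DESeq2 and 44.7% within the tag. Against the 17, the number of lower windows thus exceeded that of higher ones by edgeR's tests but not by DESeq2, which called 100 higher and 86 lower. By the quasi-likelihood test it did so also with each of the 3 animals left out. Within the tag, the 92 higher and 114 lower windows turned to 107 and 101 without M65, 120 and 92 without M67 and 119 and 85 without M69. On simulated counts with the depths of these 20 animals the main test found 16 of 34 windows set 2-fold higher and 3 of 33 set 2-fold lower, 33 of 33 set 4-fold higher and 27 of 33 set 4-fold lower, and called 5 of 99800 unchanged windows. Changes of 2-fold or less would mostly not have been detectable in single windows at this depth, above all decreases.

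**Figure D5:**
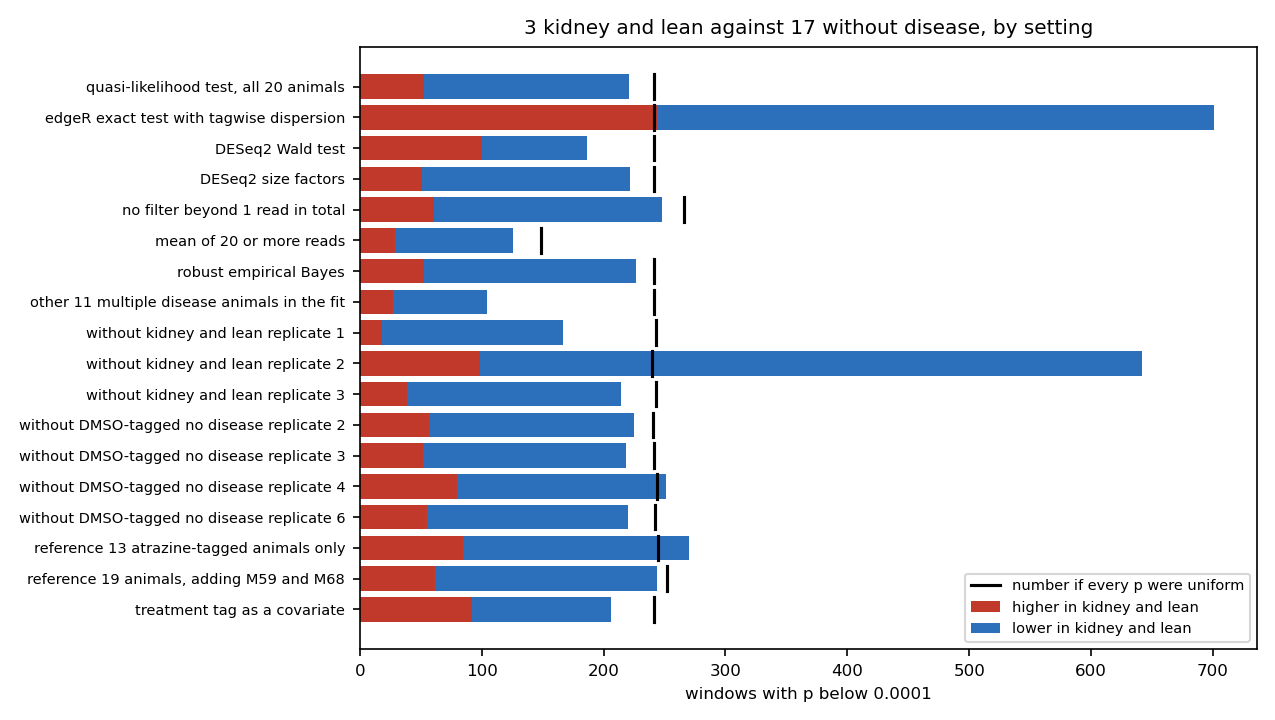
Number of windows with p below 0.0001 (x axis, from 0) in the comparison of the 3 kidney and lean animals with those without disease, with a bar for each way of testing or choosing animals, split into higher and lower windows, and a black mark for the number if every p were uniform. Most bars end near or below their mark, while edgeR's exact test with 701 windows and the test without kidney and lean replicate 2 (M58) with 642 reach far beyond it. The bar with the tag as a covariate is the comparison within the tag.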

How the data were processed

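In the study, rat sperm chromatin was precipitated with an antibody for histone H3 and sequenced (the methods also list an antibody for trimethylated H3, while the study's results name histone H3 for the retention sites, and they describe pools, although the counts are per animal). Per the labels and the methods, reads were cleaned with Trimmomatic, mapped to Rnor_6.0 with Bowtie2, sorted with SAMtools and counted with MEDIPS, and the deposited values are raw read counts in 1000 bp windows, without normalization. The authors' fold changes and p-values stand beside them and were not used, nor were 267 other columns of animals over 6 tables.

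Counts were tested in R 4.3.3 with edgeR 4.0.16 (TMM factors, dispersion trend from 200000 windows, two-sided quasi-likelihood test). P-values were adjusted by Benjamini-Hochberg over the windows tested, those with a mean of 10 or more reads over the 20 animals. Each DHR starts from windows under p = 0.0001 and takes in neighbours under p = 0.1 up to 1000 bp away. The fit within the tag has 3 groups that share 1 spread. The groups of the fits with kidney-only and lean-only animals share 1 spread as well. Standard errors are the size of the log2 fold change divided by the square root of the F statistic of the test. They were worked back from the test and hold nothing beyond the log2 fold change and p. Intervals and the floor of 3 reads cover counting error only. The procedure was tested on 100000 simulated windows. Genome-wide measures were compared by exact permutation in Python 3.11.15. Alternatives were edgeR's exact test, DESeq2 1.42.0, its size factors, other filters, robust empirical Bayes, 11 other multiple disease animals in the fit, other reference animals, the tag as a covariate, and the 3 kidney and lean and the 4 DMSO-tagged animals left out in turn. With the tag as a covariate the fit repeats the comparison within the tag, since all 3 kidney and lean animals have the DMSO tag. Comparisons with kidney-only and lean-only animals were added after the data were seen. The comparison, the gene lists and the tests were chosen with earlier results of these data known. Windows named are the lead windows of the 8 DHRs of smallest p in each direction, the 3 within the tag, the 5 in each direction with p below 0.05 in both, the longest DHRs and the 2 bins of smallest p in each direction. Gene names come from regions the study lists on Rnor_6.0, of whose 2252 names 1655 were found in the RefSeq gene table. Each sample is labelled as a separate animal. Lanes and litters are not given in the sources used here.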

Additional observations from a re-analysis of the deposited data

Results flagged for a closer look

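Among 49 groups of 4 DMSO-tagged animals without disease that were checked (single windows and genome-wide measures), 4 held an animal far from the other 3, where chance flags about 1 in 20 groups. At chr3:153043001-153044000 M67 held 1.04 RPM and the next animal 0.426 RPM. Without reads after thinning were 0.823% of the tested windows in M67 and 0.355% in the next animal. The share of reads on chromosome 15 was 4.21% in M62, above 4.20% in the next animal, and the share on chromosome 17 was 3.25% in M62, below 3.32% in the next. On several other chromosomes, not flagged by this rule, M62 lay at the end of the range of all 17. It was the highest on chromosomes 4 (7.14%) and 14 (4.50%) and the lowest on chromosomes 12 (1.51%) and X (2.43%). M62 is among the 4 animals of every comparison within the tag, apart from the fits that left it out.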

How the results depend on the processing

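The count of 221 windows with p below 0.0001 (219 DHRs) became 701 (700 DHRs, 11 windows by the adjusted p) with edgeR's exact test, 126 (126 DHRs) with a mean of 20 or more reads and 104 (104 DHRs) with 11 other multiple disease animals in the fit. With the 3 kidney and lean and the 4 DMSO-tagged animals left out in turn (the 13 atrazine-tagged ones were not) it ranged from 167 to 642 windows, 166 to 635 DHRs and 0 to 2 by the adjusted p, with the upper end without M58. Within the tag, 206 windows (197 DHRs) became 665 (662 DHRs, 5 by the adjusted p), 127 (122 DHRs) and 90 (90 DHRs) in the same settings, and 161 to 524 windows, 160 to 524 DHRs and 0 to 2 by the adjusted p with the same 7 animals left out. The adjusted call without M63 was chr18:29848001-29849000 and those without M62 were chr5:33378001-33379000 and chr6:51056001-51057000, and the latter was also called without M67 and with M59 and M68 added (1 window). DESeq2 gave 186 and 192 windows, with 53.8% and 56.25% of them higher. No 10 kb bin passed against the 17, but 1 without a filter on low counts, 62 (7 by the adjusted p) against the 4 DMSO-tagged animals and 2 to 9 with a kidney and lean animal left out. The 964 windows against the lean-only animals became 531 without M28. The causes were not tested.

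Of the other values, 342 kept direction and side of their threshold, 50 lost it, 2 gained it and none reversed, and 29 of the 50 lost it with M57, M58 or M63 left out. Another 9 of the 50 lost it with the tag as a covariate, which is the comparison within the tag again. No paired analysis was possible because the labels number every animal once, so that no number links a kidney and lean animal to one without disease. The groups are small and the reads per window few. P-values of single windows cover counting error and the spread between animals only. In the main fit this spread came more from all windows together than from the window itself (87.33 against 18 degrees of freedom). The names of genes cover the study's own regions and not the whole genome.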

Other observations

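Windows in regions that the study lists as differentially methylated in sperm of this lineage were looked up in the comparison of the 3 kidney and lean animals with the 17 animals without disease. The kidney and lean lists come from animals with a single disease, and of the 3 lists only that for multiple disease had M57, M58 and M63 in its disease group. The study called all 3 lists against animals of this lineage without disease and used the same animals for methylation as for histone retention. The lists are thus not independent of the animals without disease used here, and the effect on the shares below was not tested. The look-up was added after the data were seen, so it is a description. In the lean list, 378 windows were tested, of which 8 were higher (2.12%) and 7 lower (1.85%) with an unadjusted p below 0.05. In the multiple disease list, 9 of 396 windows were higher (2.27%) and 13 lower (3.28%). Both lists lay near the 2.19% and 2.8% of all windows tested. In the kidney list, 15 of 320 windows were higher (4.69%) and 4 lower (1.25%), and 7 of the 15 came from the 22 windows of that list on chromosome 1 between 75 and 78 Mb. No window of the 3 lists had p below 0.0001.

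The genes named from these lists were chosen after their values were seen. Jarid2 and Ttk come from the multiple disease list, Dkk3 from the lean list and Rhbdd1 from the kidney list. Jarid2, a cofactor of the Polycomb repressive complex 2, had the smallest p, with 0.232, 0.143 and 0.0371 RPM in M57, M58 and M63 at chr17:20302001-20303000 and 0.142 to 0.602 RPM in the 17 (log2 fold change -1.37, standard error 0.40, p = 0.000871, edgeR adjusted p = 0.994). There M57 (7 reads) and M58 (9 reads) lay within the range of the 17, and only M63, with 1 read, lay below it. Ttk, a kinase of the spindle checkpoint, held 0.828, 0.412 and 0.854 RPM at chr8:91379001-91380000 against 0.196 to 0.534, so that M57 and M63 were above all 17 and M58 was not (log2 fold change 0.89, p = 0.00127). Dkk3, a member of the dickkopf family, held 0.0662, 0.365 and 0.111 RPM at chr1:176980001-176981000 against 0.239 to 0.57, with M57 and M63 below all 17 (log2 fold change -0.93, p = 0.00771). The 5 lean-only animals held 0.402 to 0.619 RPM there, above all 3 kidney and lean animals. Rhbdd1, a rhomboid protease, held 0.927, 0.491 and 0.594 RPM at chr9:88149001-88150000 against 0.0908 to 0.577 (log2 fold change 0.79, p = 0.0052). The 3 kidney-only animals held 0.258 to 0.424 RPM there, below all 3 kidney and lean animals. In each of these windows M58, the deepest library, lay within the range of the animals without disease or at its edge.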
